A study of Mus musculus with 4 samples.

Results

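The Hox genes of the mouse lie in 4 clusters, and the probes described here are those of a promoter microarray that fall in 4 intervals wide enough to hold them. The intervals were chosen by position alone: chromosome 6 from 51.9 to 52.35 Mb (HoxA), chromosome 11 from 95.9 to 96.3 Mb (HoxB), chromosome 15 from 102.5 to 103 Mb (HoxC) and chromosome 2 from 74.3 to 74.7 Mb (HoxD), in the coordinates printed on the arrays. After control spots and spots with an outlier mark were left out, 504, 366, 399 and 420 probes remained, 1689 of the 473503 probes of the series. Of the 1690 probes with a position in the intervals, 1 had an outlier mark. The build of these array coordinates was not given in the sources used here.

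The series measured p53 by chromatin immunoprecipitation and microarray (ChIP-chip) in R1E cells, a mouse embryonic stem cell line. In such an assay, DNA pulled down with an antibody (IP, labelled with Cy5) is hybridised together with the DNA of the whole extract (input, labelled with Cy3). The untreated group was kept for 8 h in growth medium that held Lif (leukaemia inhibitory factor, which sustains the stem cell state) at 1000 units/ml. The treated group received 0.5 µM adriamycin, which breaks DNA, for the same 8 h with the same Lif. Cells of both groups were fixed with 1% formaldehyde, p53 was pulled down with 10 µg of antibody, and ligation-mediated PCR amplified IP and input DNA. Both groups are a single cell line, and no control antibody was among the samples analysed here. The tiled promoter sequence was split over 2 array designs, with HoxA and HoxD on design 1 and HoxB and HoxC on design 2. Each condition had 1 array per design and dyes were not swapped, so there was no replicate, no test and no p-value, and array and treatment cannot be told apart. ChIP signals do not report expression, so markers of embryonic stem cells were not checked.

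p53 is a transcription factor that is stabilised by DNA damage and binds DNA through a palindromic consensus motif. Hox genes encode homeodomain transcription factors that set positional identity along the body axis, and their order within a cluster follows the order in which they act. In embryonic stem cells the clusters are known as long CpG-rich domains that are kept mostly silent by Polycomb proteins.

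By RefSeq's gene table (GRCm38.p6), the HoxA cluster is followed by Evx1, another homeobox gene. The HoxB cluster runs from Hoxb13 to Hoxb1, with Skap1 after it, and the HoxC cluster from Hoxc13 to Hoxc4. The HoxD cluster runs from Evx2 and Hoxd13 to Hoxd1, followed by Mtx2. The table holds 39 Hox genes, and promoter sequences were found for 22 of them. At face value only 3 of these 22 starts fell inside a tiled stretch of the intervals, so the array coordinates are not those of GRCm38.p6. No stretch below was therefore assigned to a gene, and the cluster names rest on the intervals alone.

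To show the kind of sequence these clusters hold, 4 Hox promoters are printed, 1 per cluster, each as the 250 bases before the start of the gene with CpG dinucleotides in capitals. Hoxb4, Hoxc4 and Hoxd4 are paralogues of the same group; Hoxa5 stands for HoxA, whose member of that group had no entry. They come from RefSeq (GRCm38.p6): Hoxa5 at chr6:52204588-52204837 on the minus strand, Hoxb4 at chr11:96318017-96318266, Hoxc4 at chr15:103034145-103034394 and Hoxd4 at chr2:74721728-74721977 on the plus strand.
Hoxa5: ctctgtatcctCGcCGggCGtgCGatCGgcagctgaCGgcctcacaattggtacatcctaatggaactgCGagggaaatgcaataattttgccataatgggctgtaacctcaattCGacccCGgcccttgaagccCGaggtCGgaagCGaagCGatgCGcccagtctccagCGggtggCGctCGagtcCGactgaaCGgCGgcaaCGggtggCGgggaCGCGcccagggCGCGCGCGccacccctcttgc
Hoxb4: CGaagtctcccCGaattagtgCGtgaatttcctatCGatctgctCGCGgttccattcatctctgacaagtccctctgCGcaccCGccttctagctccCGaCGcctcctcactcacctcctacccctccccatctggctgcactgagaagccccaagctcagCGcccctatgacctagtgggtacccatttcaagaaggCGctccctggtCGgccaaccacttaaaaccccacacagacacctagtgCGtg
Hoxc4: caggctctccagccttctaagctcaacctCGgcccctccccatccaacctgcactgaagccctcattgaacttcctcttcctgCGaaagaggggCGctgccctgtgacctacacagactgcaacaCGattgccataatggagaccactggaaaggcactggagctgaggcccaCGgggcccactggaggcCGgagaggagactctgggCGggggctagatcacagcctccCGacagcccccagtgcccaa
Hoxd4: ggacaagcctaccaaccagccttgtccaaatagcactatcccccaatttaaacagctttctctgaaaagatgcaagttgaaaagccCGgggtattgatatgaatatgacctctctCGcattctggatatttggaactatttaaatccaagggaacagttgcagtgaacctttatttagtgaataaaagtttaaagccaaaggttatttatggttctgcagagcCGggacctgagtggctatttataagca

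The 4 promoters differed widely in CpG content, with 28 CpG for Hoxa5, 14 for Hoxb4, 8 for Hoxc4 and 3 for Hoxd4. Over the 24 Hox promoter sequences of 300 bases (250 before and 50 after the start), the median was 14.5 CpG (range 4 to 45), against 7 over all 32851 promoter sequences. The 24 cover 9 of 11 genes of HoxA and 9 of 9 of HoxD, but only 3 of 10 of HoxB and 1 of 9 of HoxC. The p53 consensus decamer, searched on both strands, was found in 3 of the 24 Hox sequences (12.5%) and in 8.36% of all sequences. The core tetramer CATG, which reads the same on both strands, was found in 11 of 24 (45.8%) and in 61.1% of all. These matches describe the letters of the windows and are not sites.

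The p53 IP signal lay far above input over most tiled sequence of the 4 intervals, both without and with adriamycin. Each value is a log2 ratio, IP over input, set to 0 at the median of its array. HoxA stood highest, with a median over its probes of 2.92 (quartiles 2.03 and 3.67) in the untreated array and 2.71 (1.97 and 3.40) with adriamycin, which is 7.58-fold and 6.55-fold over the array median. This order did not hold with normexp, where the adriamycin level of HoxA was 1.06 against 1.48 in HoxB and 1.68 in HoxC, nor with normexp fitted without extreme local backgrounds (1.48 in HoxA against 1.68 in HoxC). The other intervals were close to each other: HoxC had medians of 2.48 and 2.34, HoxD 2.46 and 2.13, and HoxB 2.43 and 2.07 (untreated first). These medians depend on how much outer sequence with little signal an interval holds, and narrowed intervals raised HoxB and HoxC (below). The tiled stretch with the highest median in both arrays lay in HoxD, at 3.71 and 3.57. The quartiles over all probes were -0.57 and 0.61 (untreated) and -0.49 and 0.52 (adriamycin) on design 1, and -0.59 and 0.63, and -0.45 and 0.50, on design 2. The lower quartile of HoxA, HoxB and HoxC in every array, and of HoxD, at 0.99 and 0.88, thus lay above the upper quartile of the design. These quartiles describe the spread over probes, which are not replicates. A control probe spotted 480 times on each array gave a technical SD of 0.23 and 0.27 on design 1 and 0.16 on both arrays of design 2. That SD is the noise of single spots and does not apply to medians over an interval.

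**Figure D1:**
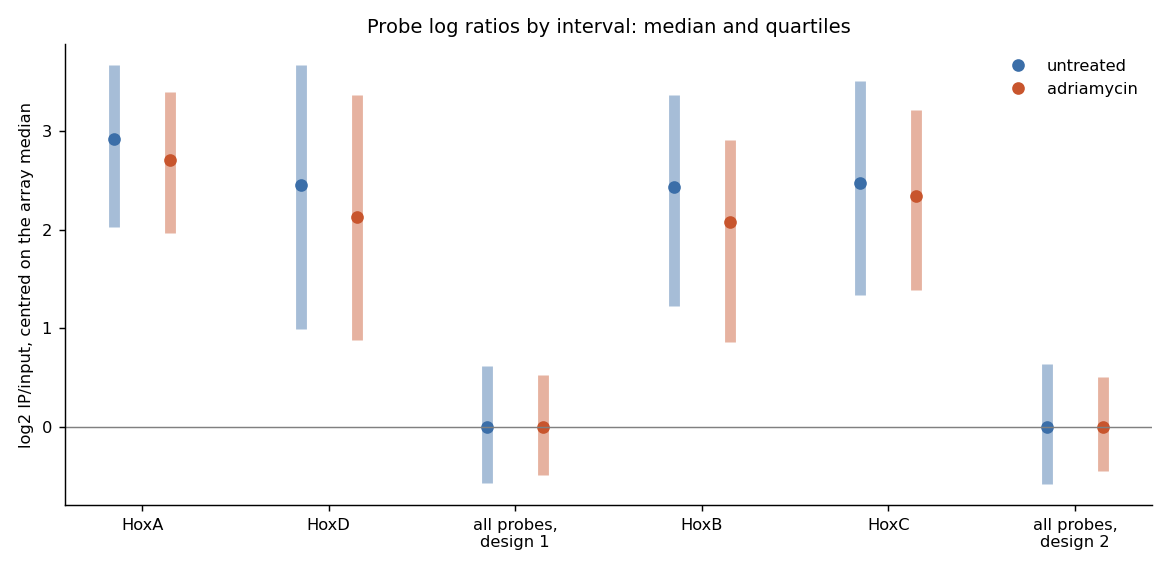
Probe log2 ratios of IP over input, centred on the array median, for the 4 intervals and for all probes of each design; points are medians and bars span the quartiles over probes, in 1 untreated and 1 adriamycin array per design. Interval medians lie between 2.07 and 2.92, while the quartile bars of all probes stay between -0.59 and 0.63.

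The IP channel without division by input stood out in the same way. The IP signal alone, relative to its own array median, was 11.7-fold (untreated) and 8.97-fold (adriamycin) higher in HoxA, 7.28-fold and 5.88-fold in HoxB, 7.48-fold and 6.78-fold in HoxC, and 6.95-fold and 5.21-fold in HoxD. The input signal alone lay above its median too, but by 0.04 to 0.54 on the log2 scale. The IP spot was not well above background for 1 HoxA probe untreated and 3 with adriamycin, for 7 and 13 HoxD probes, and for 1 HoxB probe in each array. In HoxC there were 0 such probes, and 0 spots of the intervals were saturated.

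Counted in windows of 3 neighbouring probes spanning at most 1000 bp, the intervals were enriched several times as often as the arrays. A window was called enriched at a mean of at least 1, which is 2-fold, with at least 2 of its 3 probes at least 1. In HoxA, 437 of 480 windows (91.0%) were enriched in the untreated array and 444 (92.5%) with adriamycin. In HoxD it was 303 (75.9%) and 294 (73.7%) of 399. Over all windows of design 1 the shares were 9.27% and 9.04%. In HoxB, 269 (77.3%) and 252 (72.4%) of 348 windows were enriched, and in HoxC 300 (80.4%) and 304 (81.5%) of 373, against 9.60% and 10.5% of all windows of design 2. With the sign turned, as a background within each array, 19 (1.19%) of the 1600 interval windows were depleted in the untreated arrays and 9 (0.562%) with adriamycin, against 3.76% and 2.17% of all windows. Of the 1600 windows, 1262 (78.9%) were enriched in both conditions, against 6.52% of all windows. Enrichment in the untreated array alone was seen in 47 windows (2.94%, against 2.91%) and in the adriamycin array alone in 32 (2.00%, against 3.25%). The remaining 259 (16.2%) were enriched in neither array, against 87.3% of all windows.

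**Figure D2:**
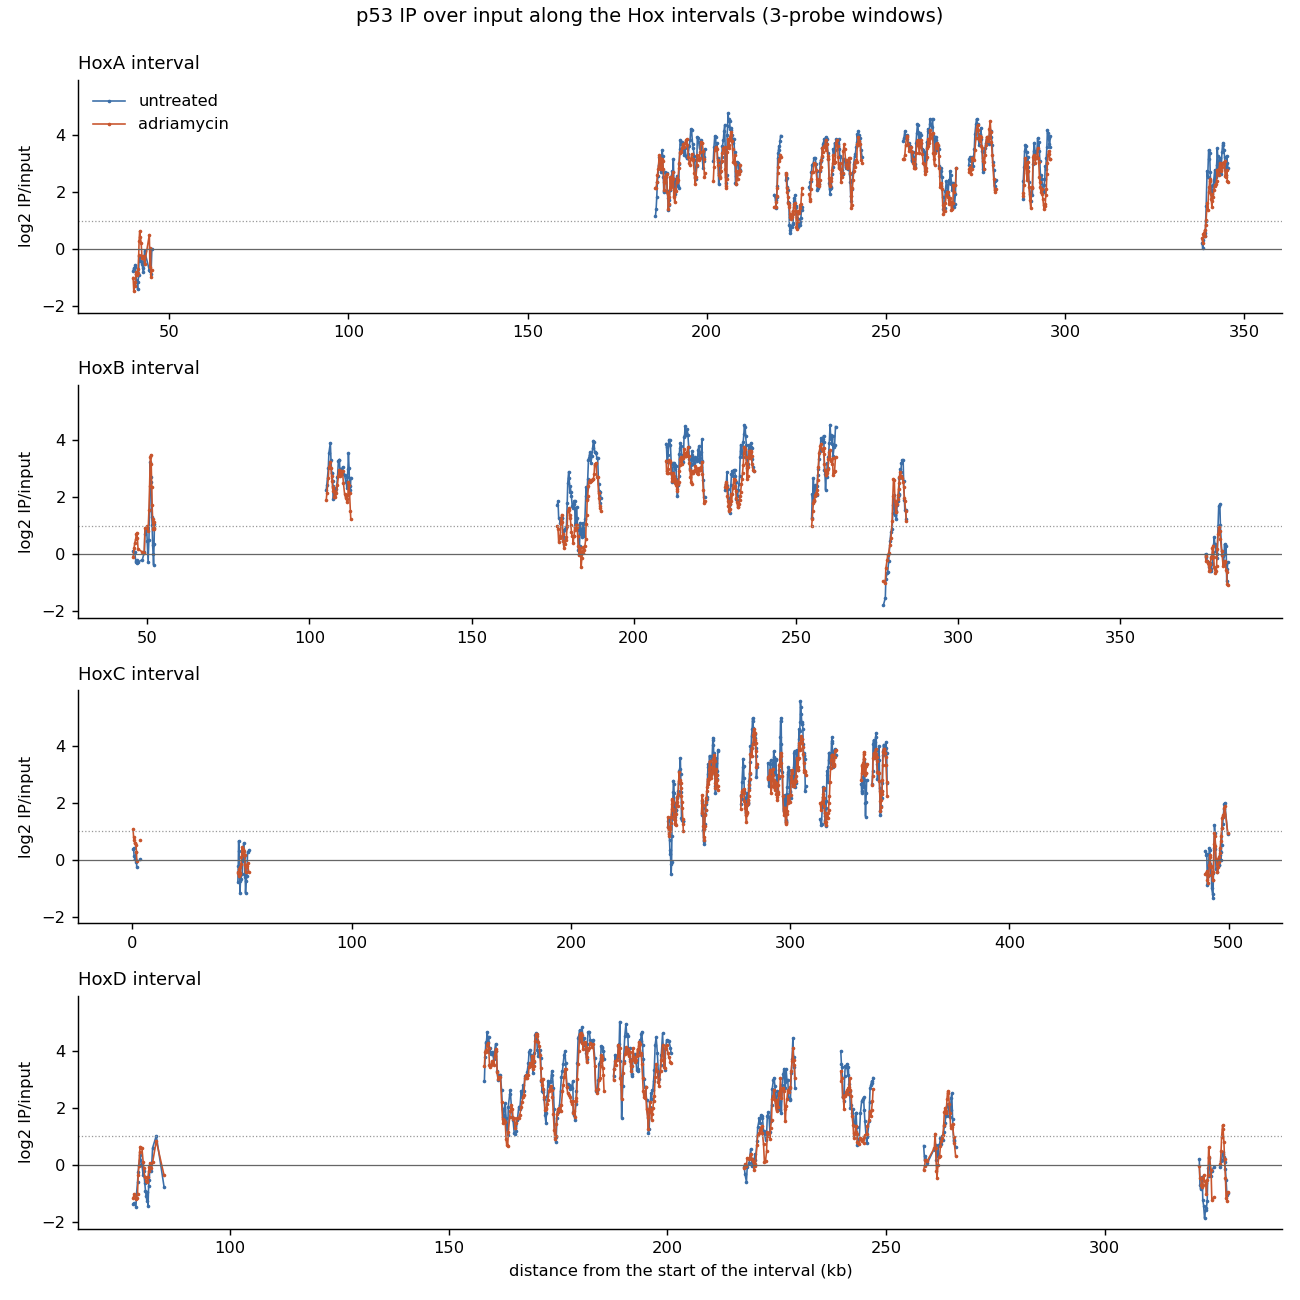
Log2 ratio of IP over input in 3-probe windows (points, joined within a tiled stretch) against the distance from the start of each interval in kb, for the untreated and the adriamycin array; the solid line marks the array median and the dotted line the 2-fold level. Central stretches stay above the dotted line along most of their length, most outer stretches lie around 0, and both conditions follow each other. The last HoxA stretch is an exception, with medians of 2.46 (untreated) and 2.34 (adriamycin).

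The signal filled tiled stretches rather than forming isolated peaks. Probes no more than 1000 bp apart were joined into a tile, which gave 39 tiles in the intervals. In 26 of them the median was at least 1 in both arrays, in 20 at least 2, and in 15 every window was enriched in both arrays. Among tiles of at least 30 probes, the median was at least 1 in both arrays in 12 of 14 interval tiles on design 1 and 12 of 15 on design 2, against 5.14% and 5.38% of all such tiles. It was at least 2 in 9 and 9, against 2.19% and 2.52%. Every window was enriched in both arrays in 6 and 7 of them, among 27 of 3466 and 30 of 3534 such tiles in all. At the ends of the 26 tiles, 43 of 52 outermost probes were still at least 1 in both arrays, so most of these tiles ended within the signal. Enriched windows of both arrays within 500 bp of each other merged into 36 regions, of which 22 were at least 5000 bp wide. The median region width was 7915.5 bp in the intervals of design 1 and 6330 bp in those of design 2, against 755 and 787 bp over all merged regions of these designs. Tile length limits such widths, and the median tile over the designs was only 4053 and 4184 bp wide.

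Regions of at least 5000 bp were mostly found elsewhere on the arrays. The intervals held 11 of 130 such merged regions on design 1 (8.46%) and 11 of 139 on design 2 (7.91%). Regions of at least 10000 bp were rare. Of the 7 merged regions of at least 10000 bp on design 1, 5 lay in HoxA or HoxD, and of the 4 on design 2, 2 lay in HoxB or HoxC. A region of that width can only be seen in a tile at least as long. Design 1 had 392 tiles of at least 10000 bp, of which 15 (3.83%) had a median of at least 1 in both arrays, 6 of them in the intervals. On design 2 it was 8 of 401 (2.00%), 3 of them in the intervals. Every tile of that length in HoxA and HoxD was among these, as were 3 of 4 in HoxB and HoxC. Among tiles of at least 30 probes with a median of at least 2 in both arrays, the intervals held 9 of 76 on design 1 and 9 of 89 on design 2. Windows whose mean over both arrays was at least 4 were concentrated further, with 78 of 298 (26.2%) on design 1 and 29 of 264 on design 2 inside the intervals. Neighbouring windows overlap and share probes.

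In the HoxA interval, 9 tiles from 52085480 to 52245478 held the signal and the 2 tiles at its low end did not. The tile from 51939701 to 51945450 had medians of -0.63 (untreated) and -0.61 (adriamycin). After a tile of 2 probes and a gap of 138140 bp, the tile from 52085480 had medians of 2.88 and 2.79, with all its 80 windows enriched in both arrays. The longest tile, from 52154568 to 52169883 (15316 bp, 81 probes), had medians of 3.41 ± 1.00 (SD over probes) and 3.12 ± 0.92 and no window below 1.24. The level was broken by a dip in the tile from 52121861 to 52126759, with medians of 1.32 and 1.47, and windows down to 0.56 and 0.71. The last tile, from 52238006, crossed from the array level into the signal: its first probe was at 0.29 and 0.36, and enriched windows began at 52239156.

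The 3 highest regions of HoxA peaked at similar levels. The peak window from 52175082 to 52175421 reached 4.57 ± 0.48 (SD over its 3 probes) in the untreated array and 4.22 ± 0.30 with adriamycin. The peak from 52162060 to 52162401, in the longest tile, reached 4.57 ± 0.07 and 4.17 ± 0.15. The peak from 52105770 to 52106090 reached 4.77 ± 0.92 and 3.87 ± 0.51, the largest fall among HoxA peaks at -0.90, which is under 2-fold. In this window the IP signal alone was lower by 0.37 and the input higher by 0.52 on the log2 scale. The smallest difference among HoxA peaks, -0.05, was in the dip region (2.64 ± 0.47 and 2.59 ± 0.60). Its lowest window, from 51941020 to 51941414, lay in the first tile, at -1.42 and -0.85.

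The HoxD interval held the widest enriched region of the 4 intervals. Its longest tile, from 74457946 to 74485669 (27724 bp, 144 probes), had medians of 3.35 ± 1.19 and 2.85 ± 1.13, and 135 of its 142 windows were enriched in both arrays. Of the 7 tiles of design 1 with at least 100 probes it had the highest median in both arrays. The neighbouring tile, from 74487432 to 74501023, had the highest untreated median of all 39 tiles, 3.71, and 3.57 with adriamycin. Windows of the longest tile ran from 0.82 to 4.83 untreated and from 0.66 to 4.64 with adriamycin, so the signal was uneven within it. Further along the interval the tile medians were lower, with 1.80 and 1.58 in the tile from 74517338, 2.50 and 1.93 in the tile from 74539472, and 1.04 and 0.84 in the tile from 74558335. The outer tiles at 74377386, 74621440 and 74626252 had medians between -0.60 and 0.12.

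The highest peak of HoxD by the mean of both arrays, from 74480330 to 74480638, reached 4.83 ± 0.38 untreated and 4.57 ± 0.48 with adriamycin. The peak from 74488928 to 74489242 reached 5.03 ± 1.32 and 4.10 ± 0.70, and that from 74528504 to 74528852 reached 4.46 ± 0.51 and 4.09 ± 0.19. The window from 74488928 had the largest fall among HoxD peaks, -0.93, with the IP alone lower by 1.08 and the input lower by 0.16. The largest rise was in the narrow region from 74626715 to 74627203 in an outer tile, from 0.45 ± 0.02 to 1.39 ± 0.40. That rise of 0.94 is under 2-fold and came with an IP signal higher by 0.35 and an input lower by 0.61. The lowest HoxD window, from 74378200, had -1.47 and -1.20.

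In the HoxB interval high tiles lay on both sides of a longer and lower one. The tiles from 96109818 (12386 bp, its widest region), 96127952 and 96154565 had untreated medians of 3.34, 3.00 and 3.26, and 2.92, 2.52 and 3.01 with adriamycin. A separate tile from 96004929 to 96013002 was also enriched in all 35 windows of both arrays, with medians of 2.83 and 2.41. Between these, the longest tile (96076182 to 96090046, 13865 bp) had medians of 1.63 ± 1.19 and 1.14 ± 0.98, and 54 of its 71 windows were enriched untreated, against 35 with adriamycin. The tile from 96176552 to 96184338 held both a low and a high part: its first window had -1.78 and -0.95, and its enriched region began at 96179608 and peaked at 3.31 ± 0.78 and 2.69 ± 0.29. The outer tiles from 95945420 and 96276023 had medians of 0.14 and 0.06 untreated and of 0.75 and -0.17 with adriamycin.

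The 3 highest HoxB peaks reached 4.54 ± 0.12 (from 96133882), 4.55 ± 0.21 (from 96160267) and 4.49 ± 0.27 (from 96115652) in the untreated array. With adriamycin they reached 3.76 ± 0.36, 3.67 ± 0.41 and 3.54 ± 0.23. All of them were lower with adriamycin, by 0.78, 0.88 and 0.94 on the log2 scale. The largest fall among HoxB peaks was that of the region from 96079212 to 96082739 in the longest tile, from 2.90 ± 0.22 to 1.61 ± 0.19, a difference of -1.29. Its IP alone was lower by 0.89 and its input higher by 0.45. The largest rise was 0.19, in the region from 95950255 to 95952405, from 3.24 ± 0.82 to 3.42 ± 0.65, with both the IP (1.18) and the input (1.04) higher.

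In the HoxC interval 7 neighbouring tiles from 102743943 to 102844504 carried the signal. Their untreated medians were 1.70 in the tile at the low end and 2.70 to 3.51 in the others. The longest, from 102789619 to 102807549 (17931 bp, 92 probes), had medians of 3.26 ± 1.08 and 2.84 ± 0.80, and all 90 windows were enriched in both arrays. Its peak window, from 102804529 to 102804826, had the highest untreated value of all 36 region peaks, 5.57 ± 0.05, and 4.10 ± 0.16 with adriamycin. That difference of -1.47 was the largest fall among HoxC peaks. The IP signal of this window was lower by 0.19 and its input signal higher by 1.33. The fall of the ratio thus went with a brighter input spot, and the IP signal itself differed little.

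The next HoxC peaks, from 102782649 and 102838730, reached 4.96 ± 0.14 and 4.29 ± 0.84 untreated, and 4.04 ± 0.34 and 3.88 ± 0.37 with adriamycin. The largest rise among HoxC peaks, 0.19, was in the tile from 102832294 to 102835116, which peaked at 3.53 ± 0.07 and 3.72 ± 0.32. Over its 18 probes this tile was higher with adriamycin by a median of 0.46, with an IP signal higher by 1.12 and an input higher by 0.49. It was the only tile with a median of at least 2 in both arrays that was higher with adriamycin. The 5 tiles at the ends of the interval had medians between -1.26 and 0.21 untreated and between -0.44 and 0.77 with adriamycin. The lowest HoxC window, from 102992654, had -1.34 and -0.71.

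The second comparison was between adriamycin and untreated cells. At the reported scaling the intervals were lower with adriamycin by well under 2-fold, a direction that flipped in all 4 when both arrays were given equal SDs. The median difference over probes, adriamycin minus untreated, was -0.17 in HoxA (63.5% of 504 probes below 0), -0.15 in HoxD (61.7% of 420), -0.31 in HoxB (70.2% of 366) and -0.08 in HoxC (54.6% of 399). Over all probes it was 0.04 on design 1 (48.0% below 0) and 0.08 on design 2 (46.2%). With 1 array per condition, the spread of such a median between arrays is unknown. Log ratios of the adriamycin arrays had a smaller SD over all probes, 0.94 against 1.06 on design 1 and 0.91 against 1.08 on design 2. With both arrays of a design scaled to the same SD, all 4 differences turned positive, at 0.16 (HoxA), 0.11 (HoxD), 0.086 (HoxB) and 0.33 (HoxC). With normexp, which models the background of each channel, HoxB (0.40) and HoxC (0.58) were positive and HoxA and HoxD negative. Fitted without extreme local backgrounds, normexp left HoxB slightly negative and HoxC positive but smaller. The fit of some IP channels was moved by few spots. On design 2, the modelled background mean of the untreated IP was -18.4 with all spots and -0.10 without 34 of them. For the adriamycin IP on design 1 it was -13.4, and -1.69 without 103 spots. Over all 36 enriched regions, the peak window was higher untreated than with adriamycin in 31 as reported. The same share over all merged regions of the designs is not given, so this count does not set the intervals apart. Windows outside the intervals with a mean of 3 to 4 also had negative median differences, -0.29 on design 1 and -0.34 on design 2. Of the 17 named region peaks, 14 were lower and 3 higher with adriamycin as reported and under 5 of 9 alternatives. Some of the 17 were named for their difference, and all 3 higher ones were named as the largest difference of their interval. Narrowed intervals, among the 5, cannot change peak values. The counts were 8 and 9 with equal SDs, 10 and 7 with normexp, 13 and 4 with normexp fitted without extreme local backgrounds, and 16 and 1 with loess. With equal SDs the falls of 96079212 in HoxB and 102789619 in HoxC stood at -0.91 and -0.64.

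**Figure D3:**
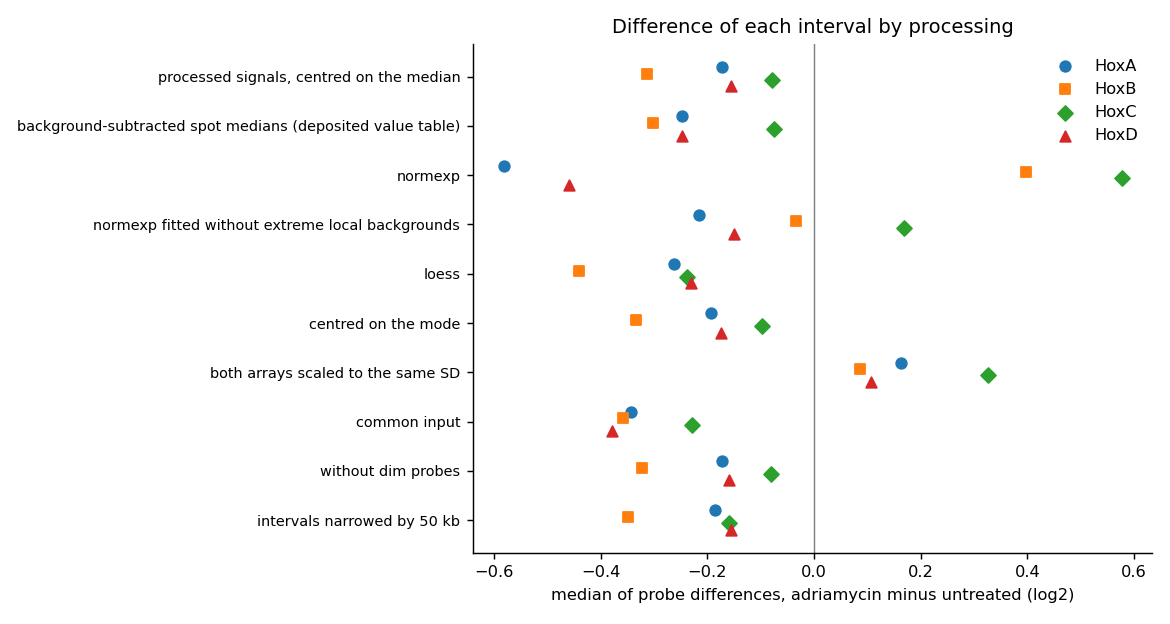
Median over probes of the difference in log2 ratio, adriamycin minus untreated, for each interval (symbols) under the 10 ways of processing that give it (rows). Differences run from -0.58 to 0.58, and with equal SDs all 4 intervals lie above 0.

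Relative to its array median, with no scaling of SDs, the IP channel alone was lower with adriamycin in all 4 intervals, by 0.31 in HoxA, 0.35 in HoxD, 0.37 in HoxB and 0.24 in HoxC. The input alone differed by -0.16, -0.23, 0.04 and -0.04. Windows outside the intervals were compared by level. Among windows with a mean of 3 to 4 over both arrays, the median difference was -0.26 inside and -0.29 outside the intervals on design 1, and -0.39 and -0.34 on design 2. For windows of 2 to 3 it was -0.25 and -0.24, and -0.22 and -0.17. For windows of 1 to 2 it was -0.19 inside and -0.04 outside on design 1, and -0.12 and 0.06 on design 2. For windows of at least 4 it was -0.29 and -0.26 on design 1 and -0.67 and -0.55 on design 2. The gap was thus smaller at levels of 2 to 4 than at 1 to 2 on both designs, and on design 2 it was wider again from 4 upwards.

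Few windows of the intervals passed 2-fold in either direction. A difference of at least 1 was seen in 17 of 1600 windows (1.06%), against 4.26% of all windows, and a difference of -1 or less in 73 (4.56%), against 5.78%. All windows are mostly unenriched, so shares were also taken by mean level (1 to 2, 2 to 3, 3 to 4, at least 4). On design 2, lower windows were 8.8%, 7.39%, 5.66% and 13.8% inside, against 4.48%, 3.61%, 4.71% and 10.2% outside. On design 1 they were 4.58%, 3.8%, 2.19% and 1.28%, against 5.84%, 4.45%, 3.98% and 2.27%. Higher windows were at none of these levels more frequent inside than outside. Per interval, higher and lower windows were 1 and 8 in HoxA, 4 and 18 in HoxD (4.41% and 5.89% of all windows of design 1), 5 and 25 in HoxB and 7 and 22 in HoxC (4.11% and 5.66% on design 2). In 10 of the 73 lower windows (0.625% of all interval windows, against 1.27% over the arrays) the IP alone was also lower by at least 1. In 7 of the 17 higher windows (0.438%, against 1.52%) it was higher by at least 1. Both the split and its relation to all windows depended on the processing. With equal SDs, 45 windows (2.81%, against 4.62% of all) were higher and 24 (1.5%, against 5.70%) lower. With a loess fit, 13 (0.812%, against 3.77%) were higher and 131 (8.19%, against 5.17%) lower. With normexp it was 71 (4.44%, against 4.43%) and 58 (3.62%, against 0.279%), and 11 (0.688%, against 0.878%) and 1 (0.0625%, against 0.0236%) when its fit left out extreme local backgrounds. The share of lower windows was thus below that of all windows as reported and with equal SDs, and above it with loess and both normexp fits. It was also above it with a common input (4.62% against 3.31%) and without dim probes (4.84% against 4.70%).

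The windows that differed most, chosen after their values were seen, formed short stretches, some of which are given here by their most different window. In HoxB, 17 of the 25 lower windows lay in the tile from 96076182. There, 10 overlapping windows from 96079698 to 96081774 included the peak named above. In the 4 windows from 96083601 to 96085503 the value was 2.04 ± 0.79 untreated and 0.54 ± 0.17 with adriamycin, with an IP signal lower by 1.24 and an input higher by 0.31. The largest fall in HoxB, from 3.85 ± 0.23 to 2.20 ± 0.42, lay in another tile, in the stretch 96132580 to 96133377. Its IP was lower by 0.49 and its input higher by 1.21. In HoxC, the largest rise of all intervals was from 102745353 to 102746230, from -0.52 ± 0.68 to 1.51 ± 0.16, with the IP higher by 0.62 and the input lower by 1.36. In the stretch from 102834083 to 102834748 the values were 1.51 ± 0.31 and 3.04 ± 0.42, with the IP higher by 1.20 and the input lower by 0.28. The largest fall of all intervals lay in the stretch 102816473 to 102818196, where 3.51 ± 0.89 untreated stood against 1.74 ± 0.19, with an IP lower by 0.35 and an input higher by 1.47. In HoxD the largest fall, from 2.37 ± 0.64 to 0.77 ± 0.19, lay in the stretch 74544041 to 74544981. Its IP was lower by 0.56 and its input higher by 1.03. In HoxA it lay in the stretch 52239262 to 52240306, from 3.48 ± 1.55 to 2.01 ± 0.80. There the IP was lower by 0.32 and the input higher by 1.14. The largest rises of these intervals, 1.30 in HoxD and 1.26 in HoxA, were in windows enriched in neither array.

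**Figure D4:**
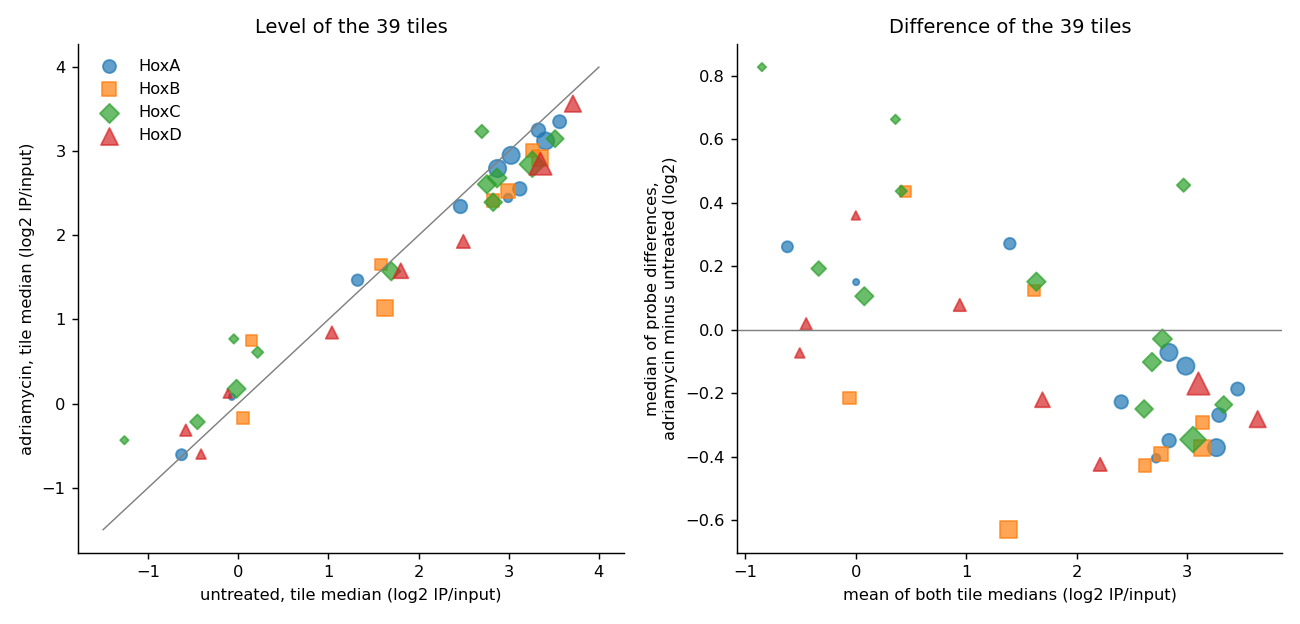
Left, tile medians of the log2 ratio in the adriamycin against the untreated array, with the line of equality; right, the median probe difference against the mean of both tile medians (symbols mark intervals, larger symbols hold more probes). Of the 26 tiles with medians of at least 1 in both arrays, 22 have a negative difference at the reported scaling (interval differences turn positive with equal SDs), and all differences of these 26 lie between -0.63 and 0.46. The same share over enriched tiles outside the intervals is not given. Windows outside with a mean of 3 to 4 also had negative median differences, -0.29 on design 1 and -0.34 on design 2.

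The shape of the profiles was shared by both conditions. Across windows, the untreated and adriamycin values correlated with r = 0.94 in HoxA, 0.96 in HoxD, 0.93 in HoxB and 0.93 in HoxC, against 0.71 and 0.73 over all windows of designs 1 and 2. These r are across overlapping windows of the same probes, which are not independent replicates, and values in the intervals cover a wider range, with SDs of 1.33 to 1.76 untreated against 1.06 and 1.08. The noise of a single probe, from differences between neighbours, was 0.66 (untreated) and 0.51 (adriamycin) in the intervals of design 1 and 0.65 and 0.37 in those of design 2, close to the 0.69, 0.56, 0.70 and 0.44 over all probes. SDs over the probes of the longest tiles, 0.80 to 1.19 in HoxA, HoxB, HoxC and HoxD, were larger than that noise.

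The intervals also stood above other probes of the same length and of the same input brightness. Interval probes were slightly shorter, with medians of 54 to 56 bases against 57 over all probes. Among 60-base probes, the untreated median was 2.50 in HoxA, 1.56 in HoxD, 2.08 in HoxB and 2.50 in HoxC, against -0.21 and -0.28 outside the intervals on designs 1 and 2. Among probes of at most 49 bases it was 3.12, 3.09, 3.03 and 2.92, against 0.22 and 0.32. Within each of 4 classes of input brightness the intervals also stood above the rest, with untreated medians of 1.52 to 3.05 on design 1 and 2.07 to 2.65 on design 2, against -0.15 to 0.23 outside. In the class with the dimmest input on design 1 the interval median was lowest, at 1.52 untreated and 1.09 with adriamycin.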

How the data were processed

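Arrays hybridised with p53 IP (Cy5) and input (Cy3) were read from the authors' deposited scanner files, made with Agilent Feature Extraction 10.1.1.1 per the file headers. Their processed signals are intensities after background subtraction and 1 linear scaling factor per dye, per the file headers. The deposited log10 ratio of red over green served only to check the direction. The log2 ratios of the authors' deposited table matched those of spot medians minus local background for 100% of compared spots (tolerance 0.01) and are not centred; the sources used here do not say how they were made.

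The value per probe was the log2 of processed red over processed green, minus the array's median over all kept probes, without loess or quantile scaling (Python 3.11.15, numpy 2.4.6, pandas 2.3.3). Windows, tiles and regions were formed as stated with the results and tested on simulated data. Normexp (offset 50) and loess came from limma 3.58.1; normexp was planned on spot means and used spot medians. Named were, in each interval, the 3 regions with the highest peak window over both arrays, the regions with the largest and smallest difference at the peak, the widest region, the lowest window and the longest tile. The members, rules and the 13 alternative settings were chosen with earlier results of these data known. The number of arrays limits the precision, and SDs over probes do not measure replicate error.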

Additional observations from a re-analysis of the deposited data

How the results depend on the processing

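No paired analysis was possible because no group held more than 1 array, and for the same reason no replicate could be left out. Over 13 alternative settings, the 22 counts of enriched windows stayed within 1.5 times of the reported ones. Interval levels ran from 0.54 to 3.03, and 7 of 40 interval differences, the reported ones included, were above 0. Of 459 values of named regions, 304 stayed within their spread and 155 moved. The 304 include those with narrowed intervals, which cannot move. Below, paired values are untreated and adriamycin. The cause was not tested except where stated.

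With loess the levels were 2.58 and 2.31 (HoxA), 2.15 and 1.63 (HoxB), 2.20 and 1.85 (HoxC) and 2.18 (HoxD untreated), with 131 lower windows. With normexp they were 1.71 and 1.06 (HoxA), 0.89 and 1.48 (HoxB), 0.86 and 1.68 (HoxC), and 1.20 and 0.54 (HoxD). Its differences were -0.58 (HoxA), 0.40 (HoxB) and 0.58 (HoxC), with 71 higher windows and 55 adriamycin regions. Fitted without extreme local backgrounds, normexp gave 1.71 and 1.48 (HoxA), 1.47 and 1.48 (HoxB), 1.43 and 1.68 (HoxC), and 1.20 and 1.01 (HoxD). Its differences were -0.033 (HoxB) and 0.17 (HoxC), with 11 higher and 1 lower window. With equal SDs HoxB had 2.24 and 2.27 and HoxC 2.28 and 2.56, differences of 0.086 and 0.33, and 45 higher and 24 lower windows. Intervals narrowed by 50 kb on both sides, which drops outer tiles, gave 2.70 and 2.38 (HoxB) and 2.84 and 2.64 (HoxC). The deposited table gave 10 higher windows (0.632%, against 4.19% of all) and windows of 5 probes 9 higher (0.594%, against 1.97%) and 40 lower (2.64%, against 3.10%). A change of 1.5-fold gave 78 higher (4.88%, against 15.9%) and 322 lower (20.1%, against 15.5%), so the share lower then lay above that of all windows. Centring on the mode, a common input and leaving out dim probes moved none of these levels, differences and counts. The share of lower windows did change sides, to above that of all windows, with a common input (4.62% against 3.31%) and without dim probes (4.84% against 4.70%).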

Other observations

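In the authors' deposited table, which is not centred, the intervals of the designs differed in opposite directions. On design 1 the median of the table's log2 ratios was 2.00 untreated and 1.70 with adriamycin in HoxA, and 1.44 and 1.12 in HoxD. On design 2 it was 1.56 and 1.69 in HoxB, and 1.49 and 1.94 in HoxC. The medians of all probes of design 2 differed in the table too, at -0.93 untreated and -0.45 with adriamycin. With the table centred, the median over probes of the difference, which need not equal the difference of the medians, was -0.30 in HoxB, -0.07 in HoxC and -0.25 in both HoxA and HoxD. A reading of the table without centring therefore gives HoxB and HoxC the opposite sign.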
